A study of Mus musculus with 8 samples.

Results

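Aminoacyl-tRNA biosynthesis genes were examined in tumors grown from cancer cells with or without a hairpin against Xbp1. The members were all entries of the deposited expression table whose KEGG pathway annotation held ko00970, aminoacyl-tRNA biosynthesis. This rule gave 44 genes of the 25766 entries in the table, of which 22036 were annotated genes. By name, 21 members encode synthetases of the cytosol, 17 encode synthetases of mitochondria, and 6 encode enzymes that modify an amino acid after it has been attached to its tRNA. A mitochondrial synthetase was recognised by a symbol ending in 2, except Tarsl2, which encodes a cytosolic enzyme. Gars and Kars were counted as cytosolic, although each gene also supplies the mitochondrial enzyme. Qars, also marked as dual in the grouping, was counted as cytosolic too.

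The study profiled 8 subcutaneous tumors by RNA sequencing, 4 shXBP1 and 4 shNT. Both groups grew from MC38-OVA, cells of a murine colon adenocarcinoma engineered with ovalbumin as a model antigen, in female mice labelled C57BL/6J. The shXBP1 cells carry a hairpin against Xbp1, and the shNT cells carry the control hairpin named shNT. The hairpin was placed in the injected cells, so the host's own cells kept an untargeted Xbp1 gene. Whether each hairpin line was a clone or a pool, whether each tumor came from its own mouse, and the age of the mice are not stated, so each p-value rests only on the spread among these tumors. Total RNA came from whole tumors, and a lower value in such bulk RNA cannot tell fewer cells of a type from less RNA per cell.

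Aminoacyl-tRNA synthetases attach each amino acid to its matching tRNA, which then carries it to the ribosome. Class I and class II enzymes have unrelated catalytic folds, and in animals several cytosolic synthetases are held with scaffold proteins in a multisynthetase complex. Most mitochondrial synthetases are separate nuclear genes whose products charge the tRNAs encoded in mitochondrial DNA. Uncharged tRNA activates the kinase GCN2 (Eif2ak4), which starts the integrated stress response, and its transcription factor ATF4 induces many cytosolic synthetase genes together with amino acid transporters and serine synthesis enzymes. The unfolded protein response of the endoplasmic reticulum has XBP1 among its transcription factors. WARS, the cytosolic tryptophan enzyme, is known as a gene that interferon-gamma induces.

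Total counts ranged from 29070605 to 36012997 per tumor, and the 44 members had between 193 and 19017 counts each in any tumor. Xbp1, the targeted gene, had 77.2, 76.0, 73.7 and 56.6 CPM in shXBP1 tumors 1 to 4, against 97.3, 96.0, 102 and 109 CPM in shNT tumors 1 to 4, so every shXBP1 tumor lay below every shNT tumor (log2 fold change -0.51, SE 0.10, edgeR adjusted p = 0.00254). CPM are counts scaled to library size, and each log2 fold change is the shXBP1 minus the shNT value. The first principal component over the genes tested took up 62.5% of the variance and split shXBP1 from shNT tumors, with shXBP1 tumor 4 nearest to the shNT tumors. Leukocyte markers were higher in shXBP1 tumors for 12 of 13 tested genes (14 listed), while 16.9% of all genes tested were higher. The summed level of these markers was 639.6 to 1052 CPM in the shXBP1 tumors and 326 to 409.8 CPM in the shNT tumors. The 4 with the smallest p, Csf3r, Cd68, Cd14 and S100a8, had log2 fold changes of 1.12 to 2.07. Ptprc, the pan-leukocyte marker CD45, had 156, 193, 171 and 94.8 CPM in shXBP1 tumors 1 to 4, against 59.4, 42.5, 66.5 and 56.4 CPM in shNT tumors 1 to 4. Summed fibroblast markers were 6141 to 8230.1 CPM in the shXBP1 tumors and 1998 to 3282 CPM in the shNT tumors. Col3a1 was the largest of the 8 in every tumor and averaged 5165 CPM in shXBP1 and 1580 CPM in shNT tumors. Of these markers 5 of 8 were higher and 1, Postn, was lower (log2 fold change -0.77, edgeR adjusted p = 0.0333). Dcn, Col3a1, Pdgfra and Pdgfrb had log2 fold changes of 0.55 to 1.77, while Col1a1 (0.052) and Col1a2 (-0.26) did not pass. Endothelial markers summed to 93.0 to 106 CPM in the shXBP1 tumors and 42.9 to 55.9 CPM in the shNT tumors, with 4 of 6 higher (Pecam1, Cdh5, Kdr and Tie1, log2 fold changes of 0.66 to 1.36). The 8 colon epithelial markers summed to 7.65 to 11.2 CPM in the shXBP1 tumors and 5.74 to 7.97 CPM in the shNT tumors, nearly all from Cdh1, with Cdx2 at 0 in all 8 tumors, so the labelled colon origin was not visible in these markers. None of the 3 erythroid markers passed (edgeR, also 0 at an unadjusted p under 0.05, and 0 by DESeq2 and limma voom), and of 4 muscle markers Mb was higher. Beyond a fit with Ptprc as a covariate, given with the cytosolic genes, the part of these other cells in the results for the members was not tested.

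Of the 44 members, all of which passed the filter on low counts, 17 were lower and 1 was higher in shXBP1 tumors (edgeR quasi-likelihood test, Benjamini-Hochberg adjusted p below 0.05 over 14907 genes). Over all genes tested, 30.0% passed, 13.1% as lower and 16.9% as higher. Cytosolic synthetases were 14 of the 17 lower members. Among them 14 of 21 were lower and 1, Wars, was higher, with a median log2 fold change of -0.46, while the median over all genes was -0.0054. Among the mitochondrial synthetases 2 of 17 were lower and the median was -0.12. Of the 6 accessory enzymes 1 was lower, with a median of -0.12. Estimates lay below 0 for 20 of 21 cytosolic and 14 of 17 mitochondrial synthetases. The direct test of cytosolic against mitochondrial enzymes was made per amino acid and is given after the single genes. Leaving out shNT tumor 3 took the number of lower members to 11 and of lower cytosolic synthetases to 10.

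**Figure D1:**
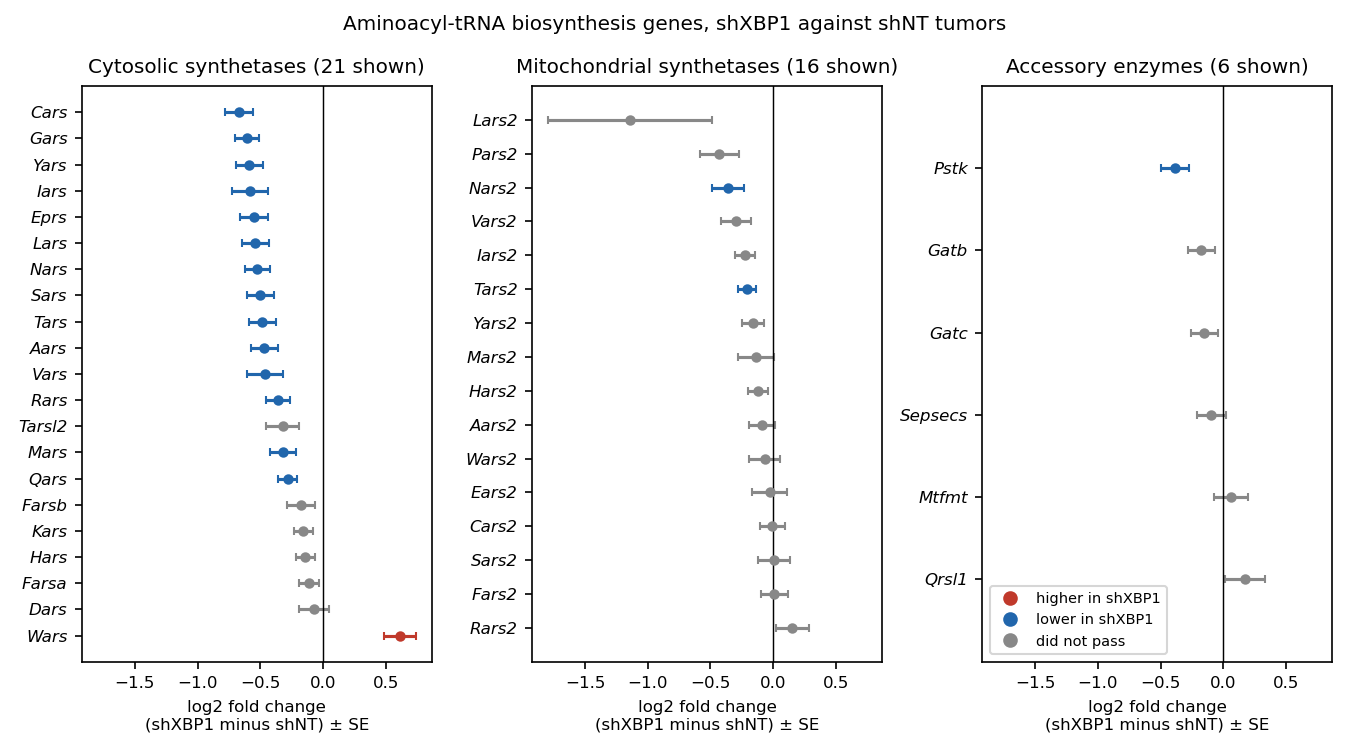
Log2 fold change of 43 of the 44 members (horizontal axis, shXBP1 minus shNT, bars ± SE from edgeR), in panels for 21 cytosolic synthetases, 16 of the 17 mitochondrial synthetases and 6 accessory enzymes. Blue and red points passed an adjusted p of 0.05 as lower or higher in shXBP1 tumors and grey points did not: 14 cytosolic genes are blue and Wars alone is red there, against 2 blue mitochondrial genes. The long bar belongs to Lars2.

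The summed level of the 21 cytosolic synthetases was 3376, 3300.0, 3229.6 and 3680.2 CPM in shXBP1 tumors 1 to 4, against 4530.5, 4563, 4678 and 3801 CPM in shNT tumors 1 to 4. Every shXBP1 tumor lay below every shNT tumor, and the mean of the shXBP1 tumors was 77.3% of the mean of the shNT tumors. The 17 mitochondrial synthetases summed to 511, 471, 503 and 504 CPM in shXBP1 tumors 1 to 4, against 535, 572, 1014 and 548 CPM in shNT tumors 1 to 4, with no overlap, and the shXBP1 mean was 74.5% of the shNT mean. The value in shNT tumor 3 held a high level of Lars2, described with the mitochondrial genes. The 16 other than Lars2 summed to 391, 379, 400.0 and 405 CPM in shXBP1 tumors 1 to 4, against 433, 466, 431 and 425 CPM in shNT tumors 1 to 4. These groups did not overlap either, and the shXBP1 mean was 89.8% of the shNT mean. Levels of single genes did not overlap between groups, lower in shXBP1 tumors, for 11 of 21 cytosolic and 3 of 17 mitochondrial synthetases, beside 13.6% of all genes tested. In either direction 12 cytosolic and 3 mitochondrial synthetases did not overlap, beside 30.2% of all genes.

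Cars, a class I enzyme, had the lowest estimate of the cytosolic synthetases. Of the 9 genes with only a class I enzyme, 8 were lower and Wars was higher, beside 13.1% lower and 16.9% higher over all genes tested. In that class the median log2 fold change was -0.46. Cars (chr7:143557230-143600090, minus strand of GRCm38), which charges cysteine, had 91.4, 83.7, 73.9 and 108 CPM in shXBP1 tumors 1 to 4, against 148, 134, 157 and 129 CPM in shNT tumors 1 to 4. The highest shXBP1 tumor stayed below the lowest shNT tumor, a 1.59-fold lower level (log2 fold change -0.67, SE 0.11, edgeR adjusted p = 0.001). Yars (chr4:129189760-129219607, plus strand), the tyrosine enzyme, had 110.2, 91.8, 87.4 and 115 CPM in the shXBP1 tumors, against 162, 159.9, 154 and 131 CPM in the shNT tumors, and the groups did not overlap (log2 fold change -0.59, SE 0.10, edgeR adjusted p = 0.00145). Iars (chr13:49682100-49734267, plus strand) charges isoleucine and had 85.3, 97.3, 93.1 and 135 CPM in the shXBP1 tumors, against 143, 163, 180.0 and 129.9 CPM in the shNT tumors. Here shXBP1 tumor 4 exceeded shNT tumor 4, so the groups overlapped, and the difference passed the test (log2 fold change -0.58, SE 0.15, edgeR adjusted p = 0.011). Lars (chr18:42202298-42262194, minus strand), the leucine enzyme, which also senses leucine for mTORC1, had 127, 149.9, 143 and 142 CPM in the shXBP1 tumors, against 231, 200.4, 220.4 and 164 CPM in the shNT tumors, with no overlap (log2 fold change -0.54, SE 0.10, edgeR adjusted p = 0.00234). Vars (chr17:35000987-35016322, plus strand), the valine enzyme, had 305, 221, 255 and 356 CPM in the shXBP1 tumors, against 338, 444, 419 and 366 CPM in the shNT tumors. Here shXBP1 tumor 4 exceeded shNT tumor 1, and the difference passed (log2 fold change -0.46, SE 0.14, edgeR adjusted p = 0.0284). Vars did not pass without shXBP1 tumor 2 or 3 or without shNT tumor 2 or 3, with adjusted p up to 0.0852. Rars (chr11:35808381-35834506, minus strand), the arginine enzyme, had 76.6, 88.9, 87.0 and 83.0 CPM in the shXBP1 tumors, against 118, 106, 118 and 89.9 CPM in the shNT tumors, with no overlap (log2 fold change -0.36, SE 0.10, edgeR adjusted p = 0.0138), and did not pass without shNT tumor 3 (adjusted p = 0.0584).

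Mars and Qars, which charge methionine and glutamine, had smaller differences. Mars averaged 80.8 ± 10.3 CPM in shXBP1 tumors and 101 ± 8.71 CPM in shNT tumors (SD, n = 4 each), with overlapping groups (log2 fold change -0.32, SE 0.10, edgeR adjusted p = 0.0305). It passed only without shXBP1 tumor 4 and without shNT tumor 4 when tumors were left out singly, and the other 6 such fits gave adjusted p up to 0.100. Qars averaged 76.3 ± 5.79 CPM in shXBP1 tumors and 92.8 ± 2.58 CPM in shNT tumors, with no overlap (log2 fold change -0.28, SE 0.077, edgeR adjusted p = 0.0153), and did not pass without shXBP1 tumor 3 or shNT tumor 3 (adjusted p up to 0.0626). Without shNT tumor 3 only 4 of the 9 class I genes were lower, and without shXBP1 tumor 3 only 5 were.

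Wars (chr12:108860030-108894174, minus strand), the tryptophan enzyme, went the other way. It had 321, 265, 247 and 208 CPM in shXBP1 tumors 1 to 4, against 181, 174, 182 and 142 CPM in shNT tumors 1 to 4. The lowest shXBP1 tumor lay above the highest shNT tumor, and the level was 1.53-fold higher (log2 fold change 0.61, SE 0.13, edgeR adjusted p = 0.0035). Wars passed in all 8 fits that left out 1 tumor. Within the shXBP1 group, tumor 4 had the lowest Wars level and also the lowest Ptprc, while Wars was highest in tumor 1 and Ptprc in tumor 2. Within the shNT group, Wars was lowest in tumor 4 and Ptprc in tumor 2. Of 8 genes of interferon-gamma signalling, 5 were higher in shXBP1 tumors and none was lower (edgeR, also 0 lower at an unadjusted p under 0.05, and 0 by DESeq2 and limma voom), with a median log2 fold change of 0.53. Over all genes tested, 16.9% were higher. With log2 CPM of Ptprc as a covariate in edgeR, 0 of the 8 were higher or lower, and the median was -0.083. Ifng, the cytokine itself, averaged 23.0 ± 9.75 CPM in shXBP1 tumors and 4.45 ± 1.30 CPM in shNT tumors (log2 fold change 2.37, edgeR adjusted p = 0.00273). Irf1, a transcription factor that interferon-gamma induces, averaged 592 ± 34.1 CPM in shXBP1 tumors and 326 ± 51.9 CPM in shNT tumors (log2 fold change 0.86, edgeR adjusted p = 0.00016), and Ifngr1, a receptor chain, had a log2 fold change of 0.58, edgeR adjusted p = 0.00229. The summed level of these 8 genes was 1569.7 to 2284 CPM in the shXBP1 tumors and 1009 to 1319 CPM in the shNT tumors, and shXBP1 tumor 4 and shNT tumor 2 had the lowest sums of their groups. Whether leukocytes or cancer cells held the Wars RNA was not tested.

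Class II cytosolic synthetases were lower in 5 of 11 genes, with a median log2 fold change of -0.32 and none higher (edgeR, also 0 higher at an unadjusted p under 0.05 and by DESeq2 and limma voom). Over all genes tested, 13.1% were lower. Gars (chr6:55038007-55079500, plus strand), the glycine enzyme, had 209, 218, 201 and 214 CPM in shXBP1 tumors 1 to 4, against 358, 333, 328 and 262 CPM in shNT tumors 1 to 4. The shXBP1 tumors lay within a narrow range below all shNT tumors, a 1.52-fold lower level (log2 fold change -0.61, SE 0.10, edgeR adjusted p = 0.00065). Nars (chr18:64499647-64516652, minus strand) charges asparagine and had 236, 259.6, 249 and 282 CPM in the shXBP1 tumors, against 389.7, 373, 408 and 306 CPM in the shNT tumors, with no overlap (log2 fold change -0.53, SE 0.10, edgeR adjusted p = 0.00199). Sars (chr3:108424865-108445209, minus strand), the serine enzyme, had 181, 163, 149.5 and 206 CPM in the shXBP1 tumors, against 260.4, 241, 273 and 216 CPM in the shNT tumors, with no overlap (log2 fold change -0.50, SE 0.11, edgeR adjusted p = 0.00456). In these genes shXBP1 tumor 4 was the highest or next to highest of its group and shNT tumor 4 the lowest of its group. Tars (chr15:11382301-11399665, minus strand), the threonine enzyme, had 145, 160.3, 157 and 180.1 CPM in the shXBP1 tumors, against 252, 230.3, 237 and 179 CPM in the shNT tumors, and the groups overlapped at tumor 4 of each (log2 fold change -0.48, SE 0.11, edgeR adjusted p = 0.00541). Aars (chr8:111033144-111057664, plus strand), the alanine enzyme, had 429, 373, 362 and 486 CPM in the shXBP1 tumors, against 594, 599.9, 596 and 494 CPM in the shNT tumors, with no overlap (log2 fold change -0.47, SE 0.11, edgeR adjusted p = 0.00619). In Aars, shNT tumor 4 stood below 3 nearly equal shNT tumors. Aars shares 14.29% of its exon bases with Exosc6 on the same strand, so part of its counts may be uncertain. Eprs (chr1:185363044-185428360, plus strand) joins a class I glutamate enzyme and a class II proline enzyme in 1 protein, and it had 220.5, 229, 222 and 271 CPM in the shXBP1 tumors, against 345, 373, 388 and 273 CPM in the shNT tumors. The highest shXBP1 tumor of Eprs was just below the lowest shNT tumor (log2 fold change -0.55, SE 0.11, edgeR adjusted p = 0.0034).

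The remaining class II genes did not pass. Kars, the lysine enzyme, averaged 328 ± 3.25 CPM in shXBP1 tumors and 366 ± 21.7 CPM in shNT tumors, with no overlap between groups (log2 fold change -0.16, SE 0.073, edgeR adjusted p = 0.127). Tarsl2, a further cytosolic threonine enzyme, had a log2 fold change of -0.32 (edgeR adjusted p = 0.085). Farsa and Farsb, the 2 subunits of the phenylalanine enzyme, had log2 fold changes of -0.11 (adjusted p = 0.32) and -0.18 (adjusted p = 0.264). For Hars, the histidine enzyme, the estimate was -0.14 (adjusted p = 0.182), and for Dars, the aspartate enzyme, it was -0.073 (adjusted p = 0.686). Hars shares 7.97% of its exon bases with Hars2 on the opposite strand. The SE of these 6 estimates lay between 0.073 and 0.13, so modest differences were within the error.

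**Figure D2:**
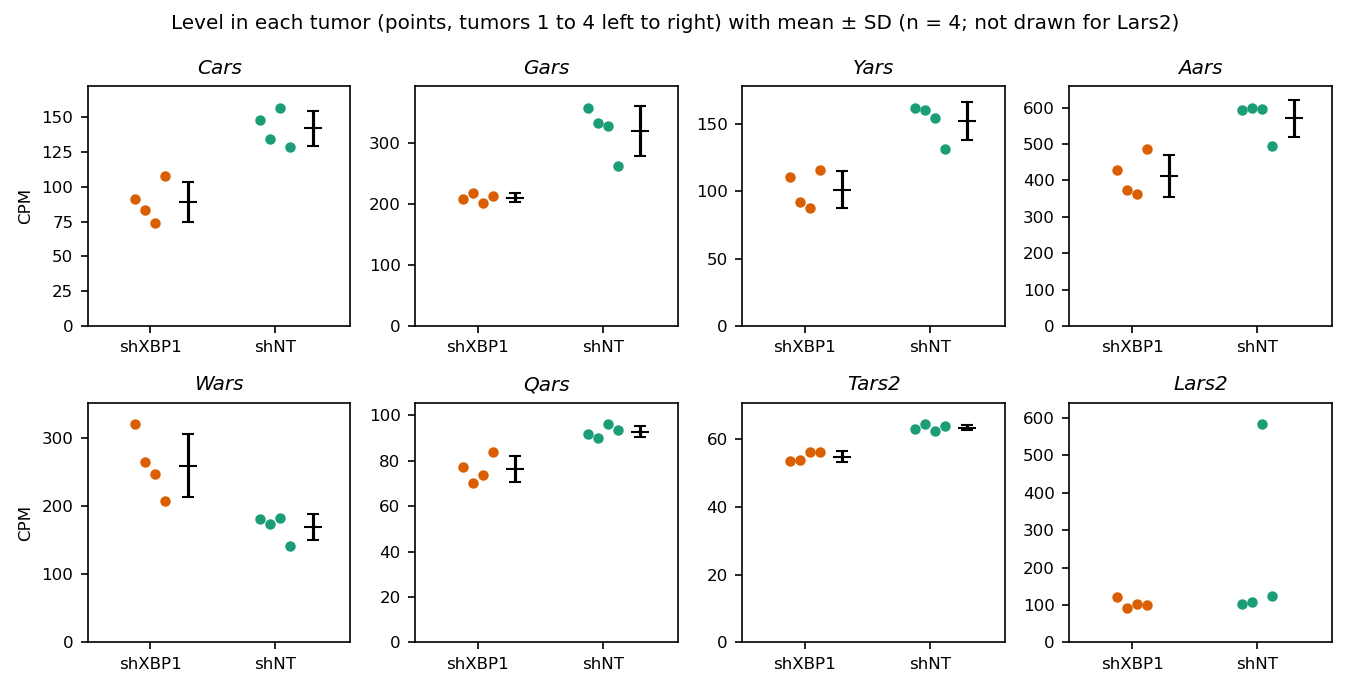
Level of 8 members in CPM (vertical axis from 0) in each of 4 shXBP1 (orange, left) and 4 shNT (green, right) tumors, with mean ± SD beside the points except for Lars2. Cars, Gars, Yars, Aars, Qars and Tars2 are lower in every shXBP1 tumor than in any shNT tumor, Wars is higher in every shXBP1 tumor, and Lars2 is set apart by shNT tumor 3 at 582 CPM.

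Promoters were read to show where a known ATF4-type motif lies in the genes that fell, with no test of binding. RefSeq promoters (build GRCm38.p6, 250 bases before to 50 bases after the annotated start) were found for 32 of the 44 members, 14 of them cytosolic synthetases, 14 mitochondrial synthetases and 4 accessory enzymes. Cars, Hars, Lars, Nars, Rars, Vars, Wars, Hars2, Pars2, Gatb and Sepsecs had no entry, so no motif was searched in them. The C/EBP-ATF response element was searched as TGATGCAA and, with 1 free base, as TGATGNAA, on both strands, and every match to the first is also a match to the second. TGATGCAA was in a promoter of 4 of 14 cytosolic genes (Aars, Iars, Tars and Yars) and of 0 of 14 mitochondrial ones. Over all 27025 genes with a promoter entry it was in 1.03%. TGATGNAA was in a promoter of 5 of 14 cytosolic genes, Gars being the fifth, of 0 of 14 mitochondrial ones and of 4.51% of all genes. All 5 of these genes were lower in shXBP1 tumors. Of the cytosolic genes with a promoter but no match, Eprs, Mars, Qars and Sars were lower too. Dars, Farsa, Farsb, Kars and Tarsl2, also without a match, did not pass. Nars2, Tars2 and Pstk were lower without a match. A link between the motif and the lower levels was not tested. The unfolded protein response element core TGACGTGG was in no promoter of the 32 members, and in a promoter of 0.714% of all genes. The interferon-stimulated element core, a pair of GAAA runs with 2 bases between them, was in 1 member, Qars, 199 bases before the start. It was in a promoter of 3.99% of all genes. A match describes letters only, and a promoter without one says nothing of a factor, since only these 300 bases were read. The 5 matching promoters are printed 5′ to 3′ on the strand of the gene, with the TGATGNAA match in capitals (its reverse complement where it lies on the other strand). They are Aars (chr8:111033592-111033891, plus strand), Gars (chr6:55037751-55038050, plus), Iars (chr13:49681880-49682179, plus), Tars (chr15:11399609-11399908, minus) and Yars (chr4:129189653-129189952, plus).
Aars: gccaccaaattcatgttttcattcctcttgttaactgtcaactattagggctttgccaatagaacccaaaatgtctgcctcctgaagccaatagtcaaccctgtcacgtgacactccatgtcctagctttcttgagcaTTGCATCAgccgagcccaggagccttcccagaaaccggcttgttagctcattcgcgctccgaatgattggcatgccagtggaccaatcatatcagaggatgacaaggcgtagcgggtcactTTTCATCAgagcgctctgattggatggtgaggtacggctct
Gars: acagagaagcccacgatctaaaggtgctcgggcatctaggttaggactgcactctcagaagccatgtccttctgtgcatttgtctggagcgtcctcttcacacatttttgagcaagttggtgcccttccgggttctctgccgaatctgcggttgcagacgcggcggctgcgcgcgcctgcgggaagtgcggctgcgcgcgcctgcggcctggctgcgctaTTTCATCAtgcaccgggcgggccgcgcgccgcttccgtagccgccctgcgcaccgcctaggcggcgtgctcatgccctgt
Iars: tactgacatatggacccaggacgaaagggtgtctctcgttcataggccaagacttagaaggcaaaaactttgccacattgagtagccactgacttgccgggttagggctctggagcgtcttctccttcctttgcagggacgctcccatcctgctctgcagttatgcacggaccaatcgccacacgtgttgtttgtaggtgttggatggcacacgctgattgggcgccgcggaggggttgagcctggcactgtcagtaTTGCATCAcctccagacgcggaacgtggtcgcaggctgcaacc
Tars: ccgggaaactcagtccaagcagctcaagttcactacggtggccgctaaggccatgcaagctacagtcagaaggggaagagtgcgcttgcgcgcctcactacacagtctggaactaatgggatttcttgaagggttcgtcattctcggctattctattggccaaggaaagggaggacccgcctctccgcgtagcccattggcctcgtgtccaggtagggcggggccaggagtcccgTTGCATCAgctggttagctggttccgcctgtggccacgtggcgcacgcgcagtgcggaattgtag
Yars: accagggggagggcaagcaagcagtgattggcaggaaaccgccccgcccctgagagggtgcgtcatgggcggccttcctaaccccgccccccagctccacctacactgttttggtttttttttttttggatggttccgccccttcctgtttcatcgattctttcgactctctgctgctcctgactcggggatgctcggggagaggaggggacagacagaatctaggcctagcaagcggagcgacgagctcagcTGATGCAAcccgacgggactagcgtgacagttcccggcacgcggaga
Positions count from the RefSeq start that each promoter was built on, which lies 698 bases inside the gene as placed by GENCODE in Aars, 143 in Yars, 30 in Iars and 7 in Tars, and 6 bases before its GENCODE start in Gars. The first base of the TGATGCAA match lay 112 bases before the RefSeq start in Aars and 15 before it in Tars, and 7 bases after it in Iars and 3 after it in Yars. Aars held a further TGATGNAA match 9 bases after the start, and the match in Gars lay 30 bases before it.

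Of the 17 mitochondrial synthetases, 2 passed, both as lower, a share close to the 13.1% of all genes tested that were lower. The median SE was 0.12, beside 0.11 for the cytosolic ones. Nars2, the mitochondrial asparagine enzyme (chr7:96951505-97064758, plus strand), had 7.68, 9.19, 7.998 and 7.77 CPM in shXBP1 tumors 1 to 4, against 10.7, 10.4, 10.9 and 9.88 CPM in shNT tumors 1 to 4, with no overlap (log2 fold change -0.36, SE 0.12, edgeR adjusted p = 0.0443). Tars2, the mitochondrial threonine enzyme (chr3:95739976-95760206, minus strand), averaged 54.9 ± 1.51 CPM in shXBP1 tumors and 63.5 ± 0.858 CPM in shNT tumors (SD, n = 4 each), with no overlap (log2 fold change -0.21, SE 0.069, edgeR adjusted p = 0.0369). Both calls were near the threshold. Nars2 passed in 1 of 8 fits that left out 1 tumor, the one without shXBP1 tumor 2, and Tars2 in 1 of 8, the one without shXBP1 tumor 4, with adjusted p up to 0.116 for Nars2 and 0.0891 for Tars2 in the others. The number of lower mitochondrial genes was 4 without shXBP1 tumor 4, 1 without shXBP1 tumor 1 or 2, and 0 without shXBP1 tumor 3 or any single shNT tumor. Pars2, for proline, had a log2 fold change of -0.43 (adjusted p = 0.0521), and Iars2, for isoleucine, -0.22 with no overlap between groups (adjusted p = 0.0559). Iars2 shares 22.89% of its exon bases with Rab3gap2 on the opposite strand, and the strand setting of the counts is not stated. Vars2, for valine, had -0.30 (adjusted p = 0.0766). The other 11 apart from Lars2 ranged from -0.16 in Yars2 to 0.15 in Rars2, whose product charges arginine.

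Lars2, the mitochondrial leucine enzyme (chr9:123366927-123462666, plus strand), was set apart by 1 tumor. It had 120.2, 92.4, 103 and 98.6 CPM in shXBP1 tumors 1 to 4, against 102, 107, 582 and 123 CPM in shNT tumors 1 to 4. The other 7 tumors lay between 92.4 and 123 CPM, and shNT tumor 3 was 4.73 times the highest of them. Among 14086 genes above 1 CPM no other gene had so high a ratio of shNT tumor 3 to the highest other tumor, and the next had 1.96. With all tumors the log2 fold change of -1.14 had an SE of 0.65 (edgeR adjusted p = 0.243). Without shNT tumor 3 it was -0.085 with an SE of 0.11 (edgeR adjusted p = 0.621), from means of 104 ± 11.9 CPM in 4 shXBP1 and 110.5 ± 11.1 CPM in 3 shNT tumors (SD). Lars, the cytosolic leucine enzyme, was not set apart in that tumor.

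**Figure D3:**
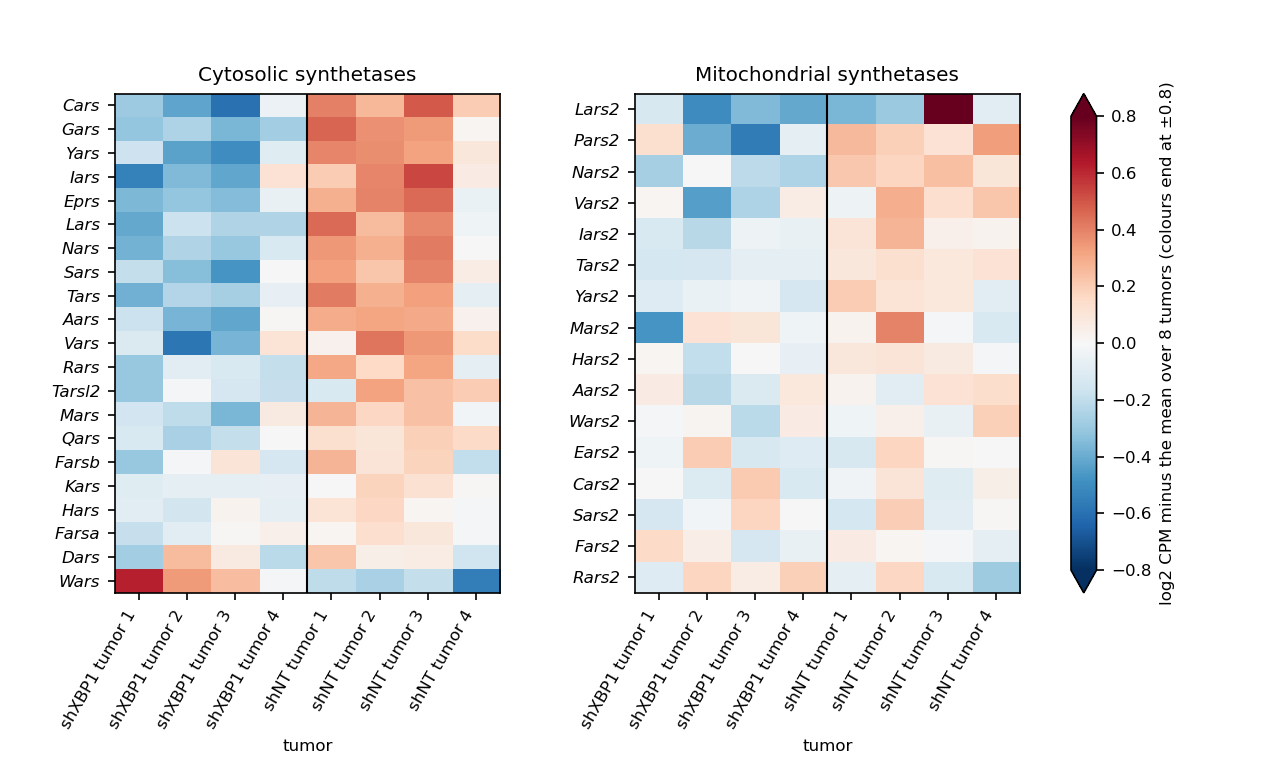
Log2 CPM of 21 cytosolic (left panel) and 16 of 17 mitochondrial (right panel) synthetases in each tumor, minus each gene's mean over all 8 tumors; columns are shXBP1 tumors 1 to 4 and then shNT tumors 1 to 4, split by a line, and colours end at ±0.8. Most cytosolic genes are blue in shXBP1 tumors 1 to 3 and red in shNT tumors 1 to 3 and are paler in tumor 4 of each group, and Lars2 in shNT tumor 3 runs past the end of the scale.

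Tumors within a group were not alike in the cytosolic genes. Of the shXBP1 tumors, tumor 4 was the highest in 13 of 21 cytosolic synthetases, against 30.4% of all genes tested. Of the shNT tumors, tumor 4 was the lowest in 17 of 21 cytosolic synthetases, against 23.9% of all genes tested. For mitochondrial synthetases the counts were 5 of 17 and 8 of 17. In whole-tumor RNA, shXBP1 tumor 4 had the lowest Xbp1 level of all tumors and shNT tumor 4 the highest. These levels mix cancer cells with host cells, whose Xbp1 was not targeted, so they do not give the level in the cancer cells. With log2 CPM of Ptprc as a covariate in edgeR, no cytosolic synthetase passed in either direction, and 3 of 21 (Gars, Lars and Rars) were lower and 0 higher when p was left unadjusted (threshold 0.05). The median log2 fold change there was -0.22. In that fit 18 of 21 estimates lay below 0 and Wars had 0.19 (adjusted p = 0.781), while SEs of the 44 members were 2.26 times as large at the median and 134 of all genes were called higher and 106 lower. Ptprc separated the groups without overlap, so the leukocyte level and the hairpin cannot be told apart here.

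Levels per length, as the authors' deposited FPKM averaged over 8 tumors, were higher for the cytosolic than for the mitochondrial enzyme in 18 of 18 amino acid pairs. The cytosolic synthetases had a median of 42.5 FPKM, from 3.12 (Tarsl2) to 149.9 (Kars), and the mitochondrial ones a median of 5.91 FPKM, from 1.96 (Mars2) to 37.6 (Lars2). The ratio within a pair had a median of 7.16. It was highest for asparagine, 46.9 (Nars over Nars2), and 32.5 for tryptophan (Wars over Wars2). For leucine it was 1.05, a value raised on the Lars2 side by shNT tumor 3.

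**Figure D4:**
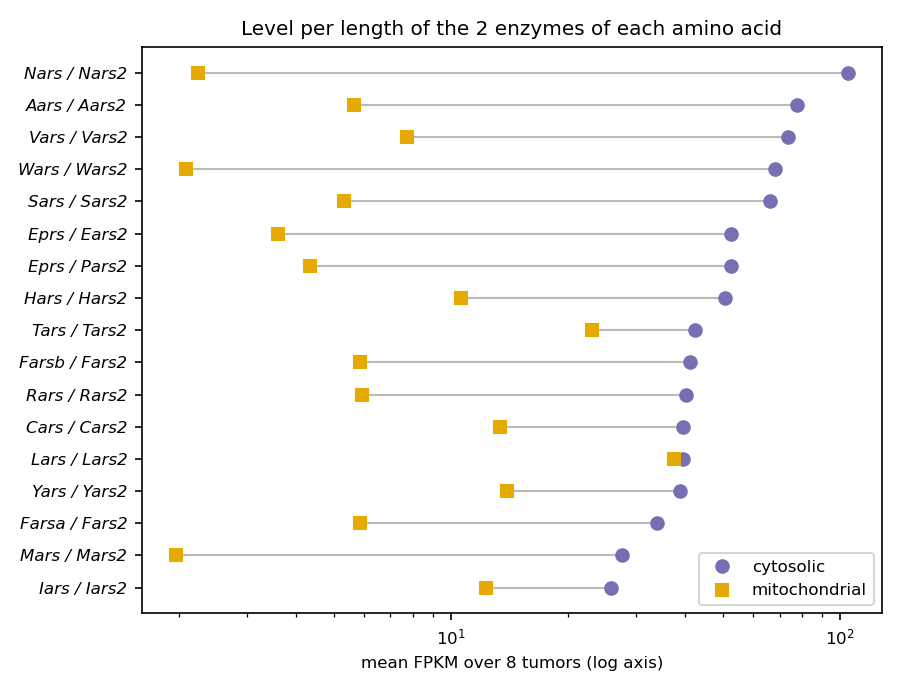
Mean FPKM over all 8 tumors (log axis) of the cytosolic (circles) and mitochondrial (squares) enzyme in 17 of the 18 amino acid pairs. Every circle lies to the right of its square, and the points for Lars and Lars2 nearly touch, with a ratio of 1.05.

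The direct comparison used the log2 ratio of counts of the cytosolic to the mitochondrial enzyme in each tumor, which does not depend on library scaling. The ratio was lower in shXBP1 tumors for 15 of 18 pairs, with a median difference of -0.18. Groups did not overlap in 5 of the 18 pairs, while levels of single genes did not overlap for 30.2% of all genes tested. The log2 ratio of Cars over Cars2 was 1.74, 1.73, 1.23 and 2.11 in shXBP1 tumors 1 to 4, against 2.47, 2.20, 2.62 and 2.19 in shNT tumors 1 to 4, a difference of -0.67 (SE 0.21). For Rars over Rars2 it was 2.73, 2.67, 2.75 and 2.55 in shXBP1 tumors 1 to 4, against 3.32, 2.92, 3.37 and 3.14 in shNT tumors 1 to 4, a difference of -0.51 (SE 0.11). For Sars over Sars2 the difference was -0.51 (SE 0.19), and for Yars over Yars2 -0.43 (SE 0.12), all lower in shXBP1 tumors. For Wars over Wars2 the log2 ratio was 4.97, 4.66, 4.80 and 4.27 in shXBP1 tumors 1 to 4, against 4.17, 4.04, 4.21 and 3.59 in shNT tumors 1 to 4, a difference of 0.67 (SE 0.21), higher in every shXBP1 tumor. Each of these 5 reached p = 0.0286 in the two-sided exact permutation test, the smallest p that 70 splits of 4 against 4 allow, and 0.103 after Benjamini-Hochberg adjustment over 18 pairs. No pair passed an adjusted p of 0.05, which would have needed at least 11 pairs at the smallest p. Pairs share an enzyme for glutamate and proline (Eprs) and for phenylalanine (Fars2).

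The other pairs had overlapping groups. Eprs over Ears2 differed by -0.51 (SE 0.16), Aars over Aars2 by -0.38 (SE 0.12) and Vars over Vars2 by -0.17 (SE 0.076), each with an exact p of 0.0571. For Nars over Nars2 the difference was -0.16 (SE 0.10) and for Tars over Tars2 -0.27 (SE 0.13), where the mitochondrial gene was lower too. Hars over Hars2 differed by -0.014 (SE 0.041). Lars over Lars2 differed by 0.17 (SE 0.60), and by -0.39 without shNT tumor 3.

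**Figure D5:**
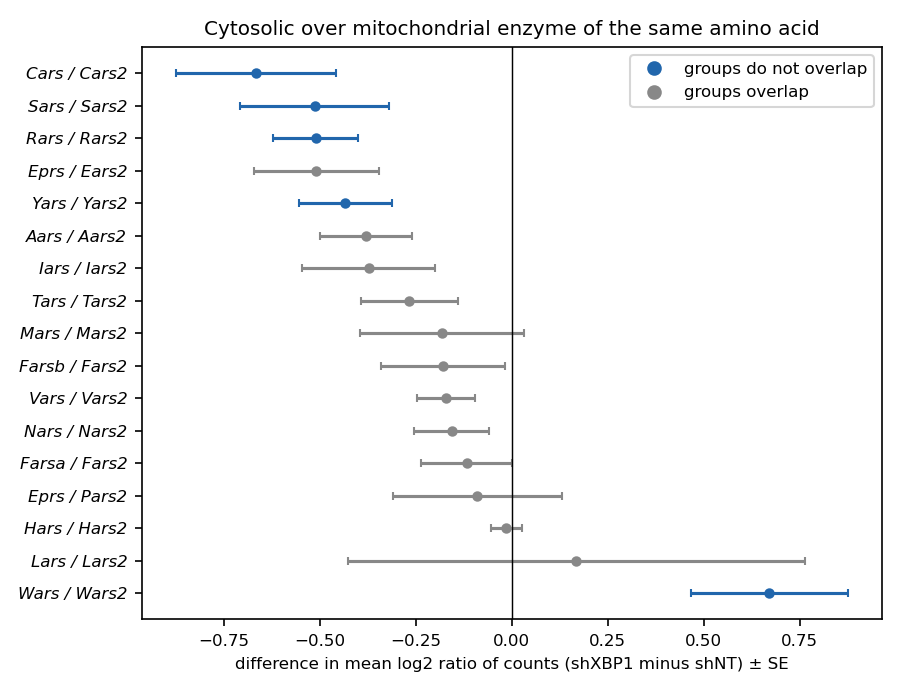
Difference between groups (horizontal axis, shXBP1 minus shNT, bars ± SE) in the mean log2 ratio of counts of the cytosolic over the mitochondrial enzyme, for 17 of the 18 pairs with 4 tumors per group. Blue points mark the 5 pairs whose groups do not overlap, from -0.67 for Cars / Cars2 to 0.67 for Wars / Wars2, and grey points mark the pairs whose groups overlap.

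The accessory enzymes act on tRNAs that already carry an amino acid. Pstk (chr7:131371141-131394482, plus strand), which phosphorylates serine on the selenocysteine tRNA, had 13.5, 13.8, 13.3 and 10.9 CPM in shXBP1 tumors 1 to 4, against 16.9, 17.2, 15.7 and 17.7 CPM in shNT tumors 1 to 4, with no overlap (log2 fold change -0.39, SE 0.11, edgeR adjusted p = 0.02). The call did not hold without shNT tumor 4 (adjusted p = 0.0517), and 58.78% of the exon bases of Pstk are shared with Ikzf5 on the opposite strand. Sepsecs, the next enzyme on the way to selenocysteine, had a log2 fold change of -0.10, edgeR adjusted p = 0.567. Gatb, Gatc and Qrsl1, the subunits of the mitochondrial amidotransferase that makes glutaminyl-tRNA, had -0.18 (adjusted p = 0.242), -0.15 (adjusted p = 0.318) and 0.17 (adjusted p = 0.452). The groups of Gatb did not overlap. Gatc had 27.4, 30.6, 30.6 and 30.4 CPM in the shXBP1 tumors, against 32.9, 40.4, 29.1 and 29.8 CPM in the shNT tumors, so the groups overlapped and shXBP1 tumor 1 lay apart from 3 nearly equal tumors of its group. Mtfmt, which formylates the mitochondrial initiator tRNA, had 0.06, edgeR adjusted p = 0.772.

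Cytosolic synthetases of the multisynthetase complex were lower in 6 of 8 genes (median log2 fold change -0.34), and those outside it in 8 of 13 (median -0.47). In the cytosolic class as a whole 14 of 21 were lower, and over all genes tested 13.1% were. Without shNT tumor 3 only 3 of the 8 complex members were lower. Of the 3 scaffold proteins, Aimp1 averaged 87.9 ± 9.62 CPM in shXBP1 tumors and 107 ± 7.26 CPM in shNT tumors (log2 fold change -0.28, edgeR adjusted p = 0.0363) and Aimp2 37.8 ± 5.19 CPM in shXBP1 tumors and 49.5 ± 3.84 CPM in shNT tumors (log2 fold change -0.39, edgeR adjusted p = 0.0146). The call of Aimp1 was lost without shXBP1 tumor 1 or shNT tumor 1, 2 or 3 (adjusted p up to 0.11). Eef1e1, the remaining scaffold protein, had a log2 fold change of 0.077, edgeR adjusted p = 0.684. Delivery of charged tRNA to cytosolic ribosomes depends on elongation factor 1, and all 4 of its subunit genes were lower, with a median of -0.64. Eef1g, a subunit of its exchange factor, had 495, 459, 530.0 and 455 CPM in shXBP1 tumors 1 to 4, against 961, 939.8, 1016 and 963 CPM in shNT tumors 1 to 4 (log2 fold change -1.001, SE 0.081, edgeR adjusted p = 1.1e-05). Eef1b2, another subunit, averaged 520.1 ± 10.8 CPM in shXBP1 tumors and 889 ± 62.0 CPM in shNT tumors (log2 fold change -0.77, edgeR adjusted p = 4.2e-05). Eef1a1, the factor that binds charged tRNA, averaged 6144 ± 544 CPM in shXBP1 tumors and 8708 ± 231 CPM in shNT tumors (log2 fold change -0.50, edgeR adjusted p = 0.0016), and Eef1d had -0.24, edgeR adjusted p = 0.0181. Eef1d was not called without shNT tumor 3 (adjusted p = 0.0646). Eef1a1 and Eef1b2 have many near-identical pseudogene copies, so their counts are uncertain where the counting could split reads.

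Among 9 mitochondrial translation factors only Tsfm, the exchange factor of the mitochondrial elongation factor, was lower (log2 fold change -0.26, edgeR adjusted p = 0.0379), and the median was -0.075. This 1 of 9 was close to the 13.1% of all genes tested that were lower. Tsfm did not pass in 7 of 8 fits that left out 1 tumor, every one except that without shXBP1 tumor 4 (adjusted p up to 0.106). Of 9 genes of tRNA processing and export, 4 were lower and 1 was higher, with a median of -0.20. Over all genes tested, 16.9% were higher. Xpot, which exports tRNA from the nucleus, had 113, 119, 115 and 136 CPM in shXBP1 tumors 1 to 4, against 192, 206, 186 and 159 CPM in shNT tumors 1 to 4, with no overlap (log2 fold change -0.62, SE 0.095, edgeR adjusted p = 0.000529). Trnt1, which adds the CCA end, had -0.33, edgeR adjusted p = 0.0365. Tsen34 and Tsen54, subunits of the tRNA splicing endonuclease, had -0.28, edgeR adjusted p = 0.0259 and 0.29, edgeR adjusted p = 0.0275. The fourth lower gene was Rtcb, the tRNA ligase, named after its values were seen. Without single tumors the number lower in this list ran from 1 to 3, with Xpot called in all 8 such fits, Trnt1 lost in 5, Tsen34 in 5 and Tsen54 in 5. Of 5 genes that remove mischarged amino acids or release peptides from tRNA, Ptrh2, a peptidyl-tRNA hydrolase, averaged 28.0 ± 1.43 CPM in shXBP1 tumors and 47.2 ± 4.12 CPM in shNT tumors (log2 fold change -0.75, edgeR adjusted p = 0.000101). Prorsd1, named for its similarity to a proline editing domain, averaged 9.74 ± 2.89 CPM in shXBP1 tumors and 5.89 ± 0.195 CPM in shNT tumors (log2 fold change 0.72, edgeR adjusted p = 0.0176) and was not called without shXBP1 tumor 2 or 3 (adjusted p up to 0.0567).

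Genes of the integrated stress response were lower in 11 of 16, with a median log2 fold change of -0.52 and none higher (edgeR, also 0 higher at an unadjusted p under 0.05 and by DESeq2 and limma voom). Over all genes tested, 13.1% were lower and 16.9% higher. Atf4, its transcription factor, had 431, 328, 405 and 413 CPM in shXBP1 tumors 1 to 4, against 576, 493, 571 and 446 CPM in shNT tumors 1 to 4, with no overlap (log2 fold change -0.40, SE 0.11, edgeR adjusted p = 0.0149), and did not pass without shNT tumor 3 (adjusted p = 0.0603). Asns, asparagine synthetase, averaged 72.0 ± 10.3 CPM in shXBP1 tumors and 131 ± 28.9 CPM in shNT tumors (log2 fold change -0.86, edgeR adjusted p = 0.00287). Slc7a5, a transporter of large neutral amino acids, averaged 81.4 ± 25.0 CPM in shXBP1 tumors and 182 ± 29.4 CPM in shNT tumors (log2 fold change -1.16, edgeR adjusted p = 0.00333). Psat1 and Phgdh, enzymes of serine synthesis, had log2 fold changes of -0.77, edgeR adjusted p = 0.000338 and -0.69, edgeR adjusted p = 0.00187. Slc7a11 and Slc3a2, the other amino acid transporter genes of the list, did not pass (-0.21, edgeR adjusted p = 0.428 and -0.12, edgeR adjusted p = 0.407). Eif2ak4, the kinase GCN2, did not pass (-0.16, edgeR adjusted p = 0.163). The summed level of the 16 genes was 1699.8, 1431, 1504 and 1821 CPM in shXBP1 tumors 1 to 4, against 2602, 2359, 2735 and 1968 CPM in shNT tumors 1 to 4. As in the cytosolic synthetases, shXBP1 tumor 4 had the highest sum of its group and shNT tumor 4 the lowest of its group. The number lower was 7 without shXBP1 tumor 3 and 7 without shNT tumor 3. With log2 CPM of Ptprc as a covariate in edgeR, 0 of the 16 were lower or higher, and the median was -0.40. In that fit 1 was lower at an unadjusted p under 0.05.

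The authors' deposited table of the same comparison, made with DESeq2 per the file headers, gave the same sign for 44 of 44 members. At its adjusted p below 0.05 the authors' deposited table had 14 cytosolic synthetases lower and 1 higher, and 4 mitochondrial synthetases lower, with 0 of 44 members past 2-fold at 0.01.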

How the data were processed

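RNA sequencing of 8 whole tumors was used, 4 shXBP1 and 4 shNT, grouped by the genotype in their labels. The authors deposited 1 table with raw counts per gene, FPKM (scaled for transcript length and sequencing depth) and their own DESeq2 comparison, per the file headers. The authors' FDR and log2 fold change columns were read only to copy members' values. Reads were placed on GRCm38, per the submitters' processing notes, while aligner, counter and strand setting are not given in the sources. Coordinates and exon overlaps came from GENCODE annotation of GRCm38.

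Counts were filtered with filterByExpr, which left 14907 genes, scaled by TMM factors (0.980 to 1.04) and tested with the quasi-likelihood method of edgeR 4.0.16 in R 4.3.3, with robust dispersions, 2-sided, with Benjamini-Hochberg adjusted p over every gene tested held against 0.05. Total counts were 29070605 to 36012997 per tumor, and the median SE of the members was 0.11 on the log2 scale, which holds counting error and spread among tumors together. No pair of libraries of the same group agreed within sampling noise, chi-square per degree of freedom being 16.2 or more. Pairs across groups were not checked. Ratios of 2 enzymes were log2 ratios of counts with 0.5 added, tested by exact permutation over tumors. The fit was tested on simulated data.

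Members, lists and tests were chosen with earlier results of these data known. Values in every tumor were given for members past the threshold with at least 1.25-fold change, for Wars and for members with a tumor apart from its group. List genes were named where they passed, by the 4 smallest p in each list, with Xbp1, Ptprc and Atf4 always named. Eef1e1, Rtcb, Eif2ak4, Slc7a11, Slc3a2, Postn, Col1a1, Col1a2, Cdh1 and Cdx2 were named outside this rule, after their values were seen. Alternatives were DESeq2 1.42.0, limma 3.58.1 (voom), other scalings and filters, no robust estimation, tumor number as a covariate, Ptprc as a covariate, a threshold of 0.01, other class borders, 5 counts added in ratios, and each tumor left out. Values of 1 mitochondrial member and 1 list gene are not reported here, though both enter the counts and summaries.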

Additional observations from a re-analysis of the deposited data

Results flagged for a closer look

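Of 162 groups of 4 tumors checked, 8 held a tumor far from the other 3 of its group, and chance alone sets apart about 1 group in 20. Lars2 had 582 CPM in shNT tumor 3, while the other shNT tumors had 102 to 123 CPM. Eprs had 271 CPM in shXBP1 tumor 4, while the others of that group had 220.5 to 229 CPM. Psat1 had 271 CPM in the same tumor (others 226 to 228 CPM) and Phgdh 319 CPM (others 227 to 236 CPM). Aars had 494 CPM in shNT tumor 4, below 594 to 599.9 CPM in the others. Gatc had 27.4 CPM in shXBP1 tumor 1, below 30.4 to 30.6 CPM. Tsen54 had 37.7 CPM in that tumor, above 33.1 to 33.6 CPM. Tsen34 had 121 CPM in shXBP1 tumor 2, below 137 to 139 CPM. The cause was not tested for any of them.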

How the results depend on the processing

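Over 44 members, DESeq2 made 2 further calls and limma voom 1, and neither RLE scaling nor leaving out robust estimation changed a call. Without Gars, Kars and Qars, 12 cytosolic synthetases were lower, and counting Tarsl2 as mitochondrial left 2 lower there. Mitochondrial genes called lower, 2 in the report, numbered 4 with DESeq2, 0 with upper quartile factors, 0 with no filter, 0 with a filter of 10 CPM, 0 with a replicate block, 0 with the Ptprc covariate and 0 at a threshold of 0.01. With the Ptprc covariate 134 genes were higher and 106 lower, with 0 members and 0 cytosolic synthetases higher and 0 lower, 0 genes of the pathway lists (cell type markers not counted) higher and 2 lower, and medians of -0.22 (cytosolic) and -0.029 (mitochondrial); of the markers, 1 leukocyte, 1 fibroblast and 1 endothelial gene were higher and 0 lower, and Vars turned to 0.25 (adjusted p = 0.626). At a threshold of 0.01, 1644 genes were higher and 879 lower, with 9 members, 9 cytosolic synthetases and 10 pathway list genes lower. Leaving out single tumors gave 1303 to 2401 genes lower (1303 without shNT tumor 3), 11 to 19 members lower, 0 to 4 mitochondrial genes lower and 15 to 21 pathway list genes lower, beside 23 with all tumors. With the replicate block, 1304 genes were lower and 12 members, all cytosolic, and Mars, Vars, Nars2, Tars2 and Pstk no longer passed. Tumor numbers did not pair the samples, with correlations of -0.25 to -0.071 between same-numbered tumors and 0 of 4 shXBP1 tumors closest to their own number. Exact permutation tests of the pairs without 1 tumor cannot go below p = 0.0571, and no pair passed after adjustment with 5 counts added. The causes of these shifts were not tested.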
